A study of Mus musculus with 6 samples.

Results

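Accessible chromatin was examined at 9 mouse genes for transcription factors that act downstream of the T cell receptor: the orphan nuclear receptors Nr4a1, Nr4a2 and Nr4a3, the zinc finger factors Egr1, Egr2 and Egr3, and the calcium-regulated factors Nfatc1, Nfatc2 and Nfatc3. Every ATAC-seq peak that overlapped the RefSeq span of one of these genes on mm10, or the 10 kb on either side of it, was taken, and peaks of different libraries that overlapped were merged into 1 region. This gave 73 of the 64817 merged regions of the series, of which 17 lay at the NR4A genes, 10 at the EGR genes and 46 at the NFAT genes. The regions were taken by gene position and by no measured value, but the genes were chosen with earlier results of these data known.

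ATAC-seq cuts open DNA with the transposase Tn5, so that a peak marks a stretch where many cuts fell. The series has 6 libraries of regulatory T cells (Tregs), the Foxp3-expressing T cells that restrain immune responses: 3 libraries from il33-/- mice of C57BL6 background (KO, replicates 1, 2 and 4) and 3 from C57BL6 mice (WT, replicates 2, 4 and 6), and values are given below in that order of replicates. IL-33 is an alarmin of the IL-1 family whose receptor ST2 is carried by many tissue Tregs, and the deletion affects the whole mouse rather than the Tregs alone. Mice of both genotypes had received 300000 cells of the melanoma line B16.F10 under the skin, and the Tregs were sorted at day 14 from the lymph nodes draining the tumour as CD4+CD25+GITR+ cells.

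When the T cell receptor is engaged, calcium enters the cell and the phosphatase calcineurin strips phosphates from NFAT proteins, which then move into the nucleus and bind DNA alone, with AP-1 or, in Tregs, with Foxp3. In parallel, kinase pathways switch on the Egr and Nr4a genes within a short time as immediate-early genes, through serum response factor at CArG boxes and through CREB-family factors at cAMP response elements (CREs). In Tregs the NR4A receptors are known to help maintain Foxp3 expression and Treg identity, and Egr2 and Egr3 are known as brakes on T cell activation.

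Sequence upstream of a gene's start was at hand from RefSeq (GRCm38.p6, the assembly behind mm10) for 6 of the 9 genes, with 12 listed starts, and 6 of those stretches are shown: the 3 NR4A starts, 1 of the Egr2 starts, and both Nfatc2 starts, whose peaks differ in height. A called region overlaps each of them. Capitals mark CRE half-sites (TGACG, or CGTCA on the other strand) and CArG boxes in the NR4A and Egr2 sequences, and the NFAT core (GGAAA, or TTTCC on the other strand) in the Nfatc2 sequences. Each runs 5′ to 3′ on the gene's strand and ends at the base before the start.
Nr4a1, chr15:101266596-101266845, plus strand: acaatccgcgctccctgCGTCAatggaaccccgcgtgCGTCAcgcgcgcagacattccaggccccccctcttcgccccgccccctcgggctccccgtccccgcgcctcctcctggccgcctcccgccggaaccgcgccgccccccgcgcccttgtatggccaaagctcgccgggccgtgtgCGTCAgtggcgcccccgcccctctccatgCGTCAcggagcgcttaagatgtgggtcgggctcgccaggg
Nr4a2, chr2:57124004-57124253, minus strand: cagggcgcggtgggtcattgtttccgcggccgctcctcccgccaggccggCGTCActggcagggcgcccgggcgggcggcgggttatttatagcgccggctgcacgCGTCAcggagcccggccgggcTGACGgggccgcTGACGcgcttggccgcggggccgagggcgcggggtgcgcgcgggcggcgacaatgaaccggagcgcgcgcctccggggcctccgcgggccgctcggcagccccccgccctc
Nr4a3, chr4:48045055-48045304, plus strand: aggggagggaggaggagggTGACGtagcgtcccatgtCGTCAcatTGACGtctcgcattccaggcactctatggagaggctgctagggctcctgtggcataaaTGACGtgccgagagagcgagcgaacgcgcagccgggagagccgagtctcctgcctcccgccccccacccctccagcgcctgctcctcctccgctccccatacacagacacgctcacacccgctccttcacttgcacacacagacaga
Egr2, chr10:67537619-67537868, plus strand: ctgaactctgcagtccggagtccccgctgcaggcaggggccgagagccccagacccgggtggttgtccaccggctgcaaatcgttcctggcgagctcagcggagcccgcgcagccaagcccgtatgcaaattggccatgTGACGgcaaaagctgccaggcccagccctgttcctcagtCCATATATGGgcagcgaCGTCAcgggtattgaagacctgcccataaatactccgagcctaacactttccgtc
Nfatc2 outer start, chr2:168601658-168601907, minus strand: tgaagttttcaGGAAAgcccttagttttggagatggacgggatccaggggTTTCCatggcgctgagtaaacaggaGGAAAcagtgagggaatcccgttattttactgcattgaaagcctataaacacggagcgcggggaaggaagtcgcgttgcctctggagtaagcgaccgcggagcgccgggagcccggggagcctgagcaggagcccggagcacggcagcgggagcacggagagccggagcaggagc
Nfatc2 inner start, chr2:168590366-168590615, minus strand: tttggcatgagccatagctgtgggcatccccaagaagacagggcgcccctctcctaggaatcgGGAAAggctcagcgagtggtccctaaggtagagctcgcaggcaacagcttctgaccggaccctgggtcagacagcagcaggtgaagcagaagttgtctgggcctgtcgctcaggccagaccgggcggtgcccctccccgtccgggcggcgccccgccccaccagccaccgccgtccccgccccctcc

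Each of the 3 NR4A stretches held 4 CRE half-sites, a number reached by 0.137% of the 32851 RefSeq promoters of the same length, while 17.8% held at least 1. The half-site contains a CpG, and these stretches held 34 CpGs at Nr4a1, 44 at Nr4a2 and 18 at Nr4a3, against a median of 6 over all promoters, with a GC content of 74.4%, 80% and 63.6%, against a median of 52.4%. The Egr2 stretch held 2 half-sites, a number that 3.90% of promoters reach, and 1 CArG box, which 1.47% of promoters have. Of the other Egr2 starts, 67537870 and 67537930 had the same numbers. The start at 67537566, nearest the median of the summits, had 0 half-sites, 1 CArG box and 3 NFAT cores. Upstream of the start at 67535499 there was no half-site, CArG box or NFAT core. The zinc finger site of the EGR factors, GCGNGGGCG on either strand, occurred once upstream of Nr4a1 and once upstream of Nr4a2 and in 4.70% of all promoters. The outer Nfatc2 start had 3 NFAT cores, a number that 6.39% of promoters reach, and the inner start had 1, and 55.6% of promoters have at least 1. No full CRE (TGACGTCA, in which both half-sites overlap), no AP-1 site (TGACTCA) and no NR4A monomer site (AAAGGTCA), searched on both strands, was found upstream of any of the 12 starts, and these occur in 1.55%, 4.46% and 1.34% of promoters. The motifs were picked after the sequences had been read, and a match describes letters in a window rather than a bound site.

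The lists held 42408, 37266 and 42738 peaks in the KO libraries, against 53251, 55939 and 52836 peaks in the WT libraries, from 4.72 to 10.3 M (mega) kept tags in KO and 12.9 to 15.2 M in WT. The KO libraries were all shallower than the WT libraries. Genotype and depth therefore cannot be told apart in any count, length or height of peaks. A region missing from a list went uncalled at the depth of that library and need not be closed. The labels do not say whether replicates came from separate mice, so a p-value here speaks of the spread among libraries, perhaps a technical one. The deleted gene, Il33, had 1 peak in each of the 3 KO and the 3 WT libraries within the same window, which does not check the genotype labels because the deleted part is not given. Of the Treg and T cell markers (Foxp3, Il2ra, Tnfrsf18, Ctla4, Ikzf2, Cd4 and Cd3e) 7 of 7 had a peak in every library. Their summed peaks were 46 to 49 in KO and 59 to 65 in WT libraries. Summed peaks at 5 B cell markers were 8 to 12 in KO and 15 to 19 in WT (none at Ms4a1), and at 5 CD8 T and NK markers 3 to 6 in KO and 7 to 9 in WT (none at Ncr1). They were 5 to 6 in KO and 6 in WT at 5 myeloid markers (none at Csf1r, Lyz2 and Adgre1), and 7 to 10 in KO and 8 to 11 in WT at 6 melanoma markers (none at Tyr, Tyrp1 and Dct). The part of these other cell types in the results was not tested.

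The 9 genes were open in the Tregs of both genotypes: each had at least 2 peaks in every library, and 39 of the 73 regions were called in all 6. That is 53.4% of the regions, against 47.5% of all 49649 regions at protein-coding genes. The share was 12 of 17 regions (70.6%) at the NR4A genes, 8 of 10 (80.0%) at the EGR genes and 19 of 46 (41.3%) at the NFAT genes. A KO library called 50, 47 and 51 of the 73 regions, against 62, 57 and 62 in the WT libraries. No region was called in all 3 KO and no WT library (0.0201% of regions at protein-coding genes were), and 2 were called in all 3 WT and no KO library, against 4.43% in that background. Another 12 regions were called in 1 library only, against 16.8% in the background. Of the 34 regions missing somewhere, 26 were called in more WT than KO libraries, 4 in more KO than WT libraries and 4 in as many of each. No such split was taken over the whole series, where every KO list (37266 to 42738 peaks) was shorter than every WT list (52836 to 55939).

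The regions missing somewhere were also the short and weak ones. The median merged length was 873 bp for the regions called in all 6 libraries and 315 bp for the others. The highest scaled pileup of a region over the libraries, a measure of peak height defined below, had a median of 2.56 for regions called in all 6 libraries, 1.08 for those called in 2 to 5 and 0.44 for those called in 1. Among the regions called in all 3 WT libraries, KO replicate 2, the shallowest library, lacked 9, and KO replicates 1 and 4 lacked 5 each. Within the 39 regions called everywhere, the median length covered by a library's peaks was 572 bp in KO and 722 bp in WT, and 38 of the 39 were longer in WT on average. The median log2 ratio of KO to WT lengths was -0.31, beside -0.28 over all 29419 regions of the series called in all 6 libraries. Over those 29419 regions the median length was 553 bp in KO and 700 bp in WT, and the share longer in WT was not counted. Summits of the libraries lay close together, with a median spread of 101 bp and a largest spread of 739 bp over the 39 regions.

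**Figure D1:**
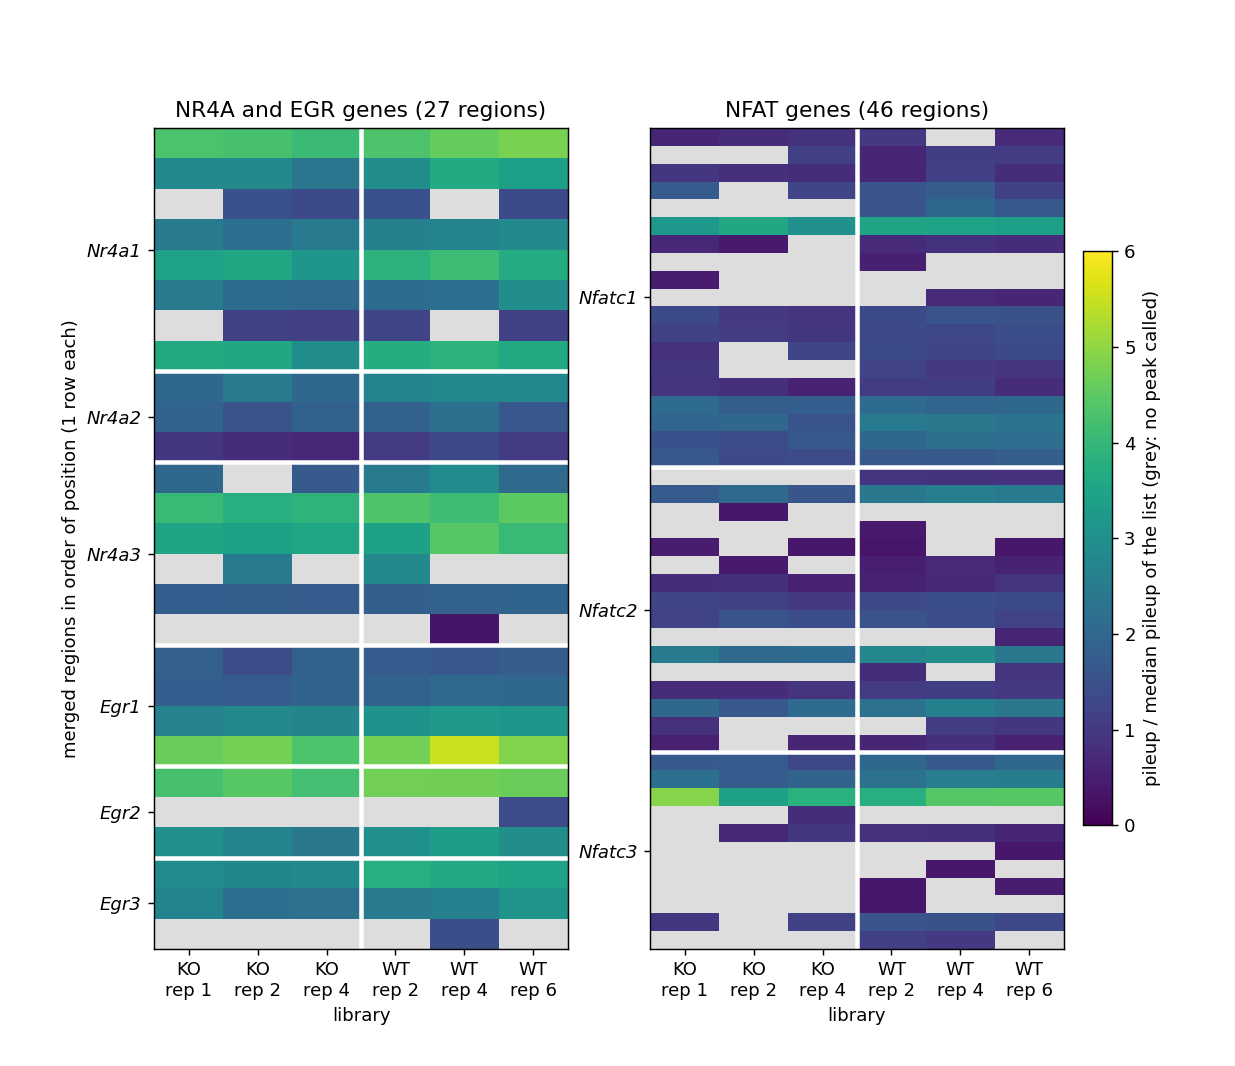
Peak height in each of the 73 merged regions (rows, in order of position within each gene) and each library (columns, KO left of WT), as pileup divided by the median pileup of that library's list. Grey cells mark regions that were not called: they are rare at the NR4A and EGR genes on the left and frequent at the NFAT genes on the right, where 19 of 46 regions were called in all 6 libraries.

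Peak height was taken as the authors' pileup at the summit, the number of extended tags stacked there. Dividing it by the median pileup of the library's own list gave the scaled pileup, in which 1 is the middle peak of that library. A second scale divided it by the library's median over the 29419 regions called in all 6 libraries, because the median of a list depends on how many weak peaks were called. On the scaled pileup, 22 of the 39 shared regions were lower in every KO library than in every WT library, 0 were higher and 17 overlapped, while 48.2% of all shared regions were lower and 0.197% higher. On the shared-region scale 0 of the same 39 were lower and 13 were higher in every KO library, against backgrounds of 6.9% and 13.7%. The median log2 difference of KO from WT over the 39 was -0.19 on the scaled pileup, where that of all shared regions was -0.32, and 0.15 on the shared-region scale, where that of all was 0.03. The change of scale moved every difference by 0.35, so most differences below are negative on the first scale and positive on the second, and both are given.

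Of the 39 regions, 22 had a mean scaled pileup of at least 2, and 9 of these were higher in every KO library on the shared-region scale, as were 27% of the 10346 such regions of the series, while 0 were lower, as were 3.32%. On the scaled pileup 14 of the 22 were lower in every KO library, as were 53% in the series. With pileup divided by the library's kept tags, 0 of the 39 were lower and 1 was higher in every KO library. Backgrounds were 3.34% and 4.7%, and the 1 region lay outside the lower end of Egr1.

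**Figure D2:**
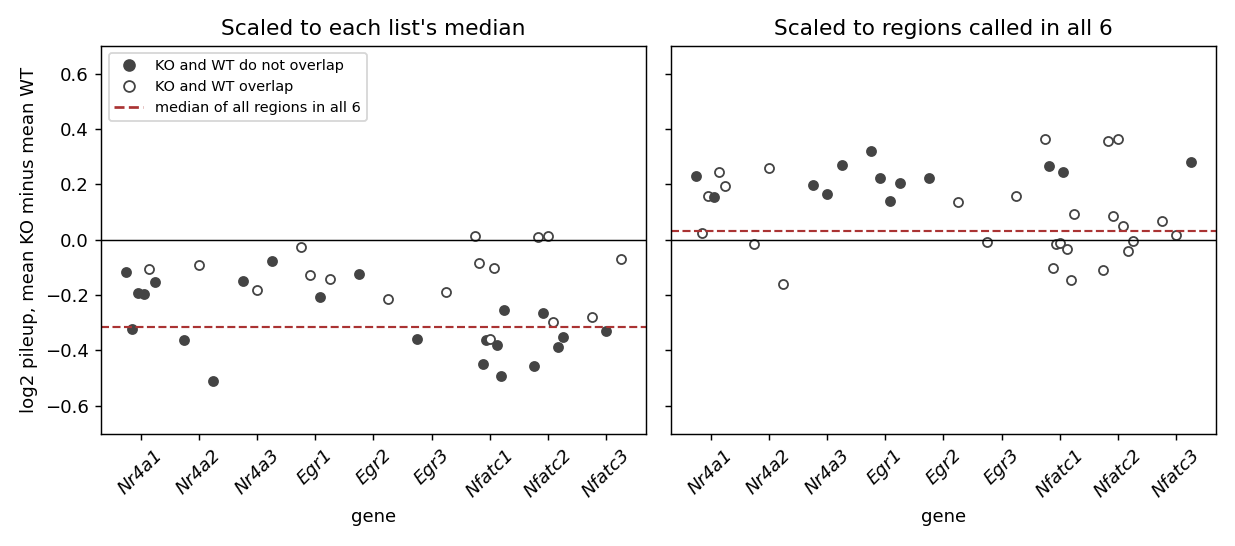
Log2 difference in peak height, mean KO minus mean WT, at the 39 regions called in all 6 libraries, by gene, on the scaled pileup (left) and on the shared-region scale (right). Filled points are regions whose KO and WT libraries do not overlap, and the dashed line is the median of all 29419 shared regions: the filled points lie below 0 on the left (22 regions) and above 0 on the right (13 regions).

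The NR4A receptors bind DNA without a known hormone, and Nr4a1 (Nur77) is widely used as a reporter of T cell receptor signalling. Nr4a1 had 8 regions, and its strongest was not at a start: chr15:101245980-101247438 lay 6.46 kb outside the lower end of the gene span. Its scaled pileup was 4.30, 4.25 and 4.09 in KO, against 4.32, 4.59 and 4.79 in WT. The KO libraries sat just below the WT libraries, with a log2 difference of -0.12 (SE 0.05, n = 3 libraries each) and one of 0.23 on the shared-region scale, on which every KO library was higher. By significance this peak ranked at the 96.4th to 97.5th percentile of each library's list.

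The listed start of Nr4a1, with the CRE half-sites printed above, lay in chr15:101266264-101267350. The scaled pileup there was 3.45, 3.56 and 3.17 in KO, against 3.86, 4.11 and 3.69 in WT, with no overlap (log2 difference -0.19, or 0.15 and higher in every KO library on the shared-region scale). The median of the summits lay 40.5 bp from the start. A further region at the lower end of the span, chr15:101253615-101254379, had 2.85, 2.81 and 2.35 in KO, against 2.96, 3.67 and 3.38 in WT (-0.32, or 0.03 with overlap on the shared-region scale).

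Inside the gene, chr15:101258126-101258988 had 2.5, 2.19 and 2.48 in KO, against 2.61, 2.70 and 2.86 in WT, which did not overlap on this scale and did on the shared-region scale (-0.19 and 0.16). The neighbouring chr15:101267487-101268125 overlapped on both scales, with 2.5, 2.12 and 2.04 in KO, against 2.11, 2.19 and 2.93 in WT. The regions chr15:101256068-101256492 and chr15:101274376-101274706 were each called in KO replicates 2 and 4 and in WT replicates 2 and 6. Neither genotype called them throughout. Beyond the upper end, chr15:101283158-101284622 lay 8.36 kb away and covered an end of the autophagy gene Atg101. It had 3.65, 3.56 and 2.96 in KO, against 3.71, 3.89 and 3.66 in WT (-0.15, or 0.19 with overlap on the shared-region scale).

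Nr4a3 (Nor1) had its strongest region upstream of the start as well, at chr4:48042609-48043702, 1.38 kb outside the lower end of the span. The scaled pileup was 4.05, 3.75 and 3.91 in KO, against 4.36, 4.15 and 4.48 in WT (-0.15 with SE 0.05, or 0.20 and higher in every KO library on the shared-region scale). The start itself, chr4:48044549-48045645, had 3.50, 3.44 and 3.52 in KO, against 3.43, 4.44 and 4.07 in WT. The KO libraries were close together there and WT replicate 2 fell below them, so the groups overlapped (-0.18), while on the shared-region scale every KO library was higher (0.16).

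Far inside Nr4a3, chr4:48074604-48075476 had 1.80, 1.81 and 1.74 in KO, against 1.82, 1.89 and 1.93 in WT, a difference of -0.08, or 0.27 and higher in every KO library on the shared-region scale. The outermost region below the gene, chr4:48039689-48040034, was called in every library but KO replicate 2, at 2.00 and 1.70 in KO replicates 1 and 4, against 2.5, 2.89 and 2.07 in WT. Next to the start, chr4:48047136-48047364 was called in KO replicate 2 and WT replicate 2 alone, at 2.44 and 2.82. A last region, chr4:48087617-48087816, was called in WT replicate 4 alone, at 0.33.

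Nr4a2 (Nurr1) had the lowest strongest region of the NR4A genes. Its start region, chr2:57123171-57124488, which also overlaps the gene model LOC105244150, had a scaled pileup of 0.95, 0.75 and 0.70 in KO, against 1.04, 1.33 and 1.03 in WT. Every KO library was lower on this scale (log2 difference -0.51 with SE 0.18), the largest log2 difference in size of the 39 regions, although the highest KO library and the lowest WT library were close, while on the shared-region scale the groups overlapped (-0.16). By significance the peak stood at the 21.8th to 43.3rd percentile of the KO lists and the 49.0th to 65.4th of the WT lists. The strongest region of the gene lay inside the span, at chr2:57114160-57115429, with 2.00, 2.44 and 2.00 in KO, against 2.68, 2.78 and 2.79 in WT (-0.36, or -0.02 with overlap on the shared-region scale). The third, chr2:57116496-57117104, overlapped on both scales, with 1.90, 1.56 and 1.87 in KO, against 1.86, 2.22 and 1.62 in WT.

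The Egr genes are small immediate-early genes. Egr1 had the strongest region of all 9 genes, chr18:34859863-34862133, across the lower end of its span, which ranked first among the 9 strongest regions in 5 of the 6 libraries and second in KO replicate 1. The scaled pileup was 4.65, 4.75 and 4.30 in KO, against 4.75, 5.52 and 4.86 in WT. KO replicate 2 tied with WT replicate 2 on this scale (-0.14 with SE 0.08), and on the shared-region scale every KO library was higher (0.21).

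A chain of 3 shorter regions followed outside the lower end of Egr1. The nearest, chr18:34856191-34856612, 4.59 kb away, had 2.65, 2.81 and 2.74 in KO, against 3.07, 3.22 and 3.17 in WT (-0.21, or 0.14 and higher in every KO library on the shared-region scale). The next, chr18:34855180-34855853, had 1.80, 1.75 and 1.91 in KO, against 1.86, 2.07 and 2.03 in WT (-0.13 with overlap, or 0.22 and higher in every KO library on the shared-region scale). The farthest, chr18:34854290-34855019, had 1.85, 1.38 and 1.87 in KO, against 1.75, 1.63 and 1.76 in WT. It overlapped on the scaled pileup (-0.03) and was higher in every KO library both on the shared-region scale (0.32) and relative to kept tags (0.34). In all, 4 of 4 regions of Egr1 were higher in every KO library on the shared-region scale (background 13.7%, or 27% of strong regions), 1 of 4 was higher relative to kept tags (background 4.7%) and 1 of 4 was lower on the scaled pileup (background 48.2%).

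Egr2 (Krox20) had 1 strong region over most of its listed starts, chr10:67536021-67537939, which holds the CArG box and half-sites printed above. Its scaled pileup was 4.25, 4.44 and 4.22 in KO, against 4.71, 4.70 and 4.66 in WT. The libraries of each genotype were close together and the groups did not overlap (-0.13 with SE 0.02, or 0.22 and higher in every KO library on the shared-region scale). The listed start nearest the lower end, position 67535499, had no peak over the 250 bases before it. A region 5.77 kb beyond the upper end, chr10:67547957-67549895, covered an end of the neighbouring gene Ado, a thiol dioxygenase, and had 3.0, 2.69 and 2.39 in KO, against 3.0, 3.37 and 2.97 in WT (-0.21 and 0.14, overlapping on both scales). The third region, chr10:67538835-67539079, was called in WT replicate 6 alone, at 1.38.

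Egr3 had both of its regions called in all 6 libraries outside the lower end of the span. The stronger, chr14:70074464-70075999, lay 1.32 kb away and had 2.90, 2.75 and 2.83 in KO, against 3.79, 3.63 and 3.45 in WT. The gap between the groups was wider than the spread within either (-0.36 with SE 0.04), while on the shared-region scale the groups overlapped (-0.01). The second, chr14:70076644-70077032, lay 285 bp from the end and had 2.70, 2.19 and 2.26 in KO, against 2.46, 2.59 and 3.10 in WT (-0.19 and 0.16, overlapping on both scales). Inside the gene, chr14:70078470-70078734 was called in WT replicate 4 alone, at 1.44.

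**Figure D3:**
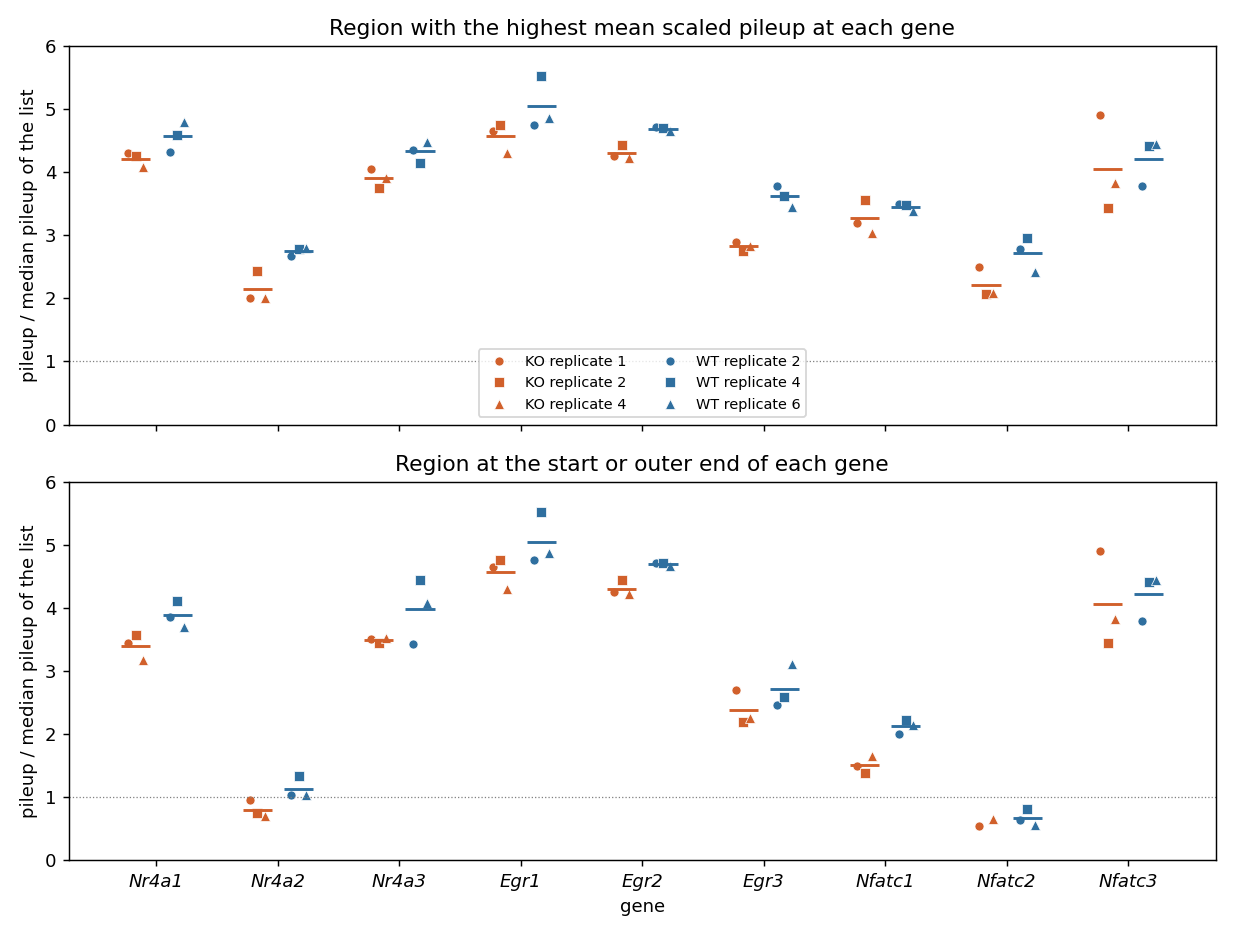
Scaled pileup per library at the strongest region of each gene (top) and at the region on its start or, where no start is listed, at or nearest to an end of the span (bottom). Points are libraries, KO left of WT, bars are group means (none where a library had no peak), and the dotted line is the median peak of a list: the strongest region of Egr1 reaches 5.52 in WT replicate 4, while the starts of Nr4a2 and the outer start of Nfatc2 lie near or under 1.

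The NFAT genes are far longer than the others and had most of the regions. Nfatc1 encodes NFATc1 (NFAT2), whose own promoter is known to be induced by NFAT in activated lymphocytes. It had 19 regions, 9 of them called in all 6 libraries. The strongest lay inside the span, at chr18:80611201-80612576, with a scaled pileup of 3.20, 3.56 and 3.04 in KO, against 3.50, 3.48 and 3.38 in WT. The groups overlapped (-0.08 with SE 0.07), and on the shared-region scale every KO library was higher (0.27).

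At the upper end of Nfatc1, chr18:80712351-80713365 had 1.5, 1.38 and 1.65 in KO, against 2.00, 2.22 and 2.14 in WT. The groups were well apart on this scale (-0.49 with SE 0.09) and overlapped on the shared-region scale (-0.15). Just outside it, chr18:80714243-80715110 had 1.65, 1.31 and 1.39 in KO, against 1.68, 1.67 and 1.83 in WT (-0.25, or 0.09 with overlap on the shared-region scale). Inside it, chr18:80708094-80708611 had 1.95, 2.00 and 1.57 in KO, against 2.46, 2.37 and 2.31 in WT (-0.38, or -0.03 with overlap on the shared-region scale). Its neighbour chr18:80707045-80707888 differed from it: with 2.1, 1.81 and 1.78 in KO, against 2.11, 1.96 and 2.03 in WT, it overlapped on the scaled pileup (-0.10) and was higher in every KO library on the shared-region scale (0.24).

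Deeper in Nfatc1, chr18:80685896-80686864 had 1.35, 1.0 and 0.91 in KO, against 1.36, 1.56 and 1.48 in WT (-0.45, or -0.10 with overlap on the shared-region scale). The nearby chr18:80689886-80690326 had 1.15, 1.06 and 0.96 in KO, against 1.32, 1.30 and 1.45 in WT (-0.36, or -0.01 with overlap on the shared-region scale). By significance both stood between the 26.8th and 58.0th percentile of the lists. The remaining 2 regions called everywhere overlapped on both scales: chr18:80697010-80697718, at 0.57 to 0.90 in KO and 0.76 to 1.11 in WT, and chr18:80600424-80600955, at 0.78 to 0.95 in KO and 0.64 to 1.15 in WT.

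Nfatc1 also held 1 of the 2 regions called in every WT and no KO library. At chr18:80609646-80609944 the WT libraries had 1.57, 2.00 and 1.66, above the median pileup of a list but at the 28.5th, 46.9th and 37.3rd percentile by significance, and it lay next to the strongest region of the gene, which all 3 KO libraries called. Another region, chr18:80696325-80696773, was called in 1 KO library, at 0.95, and in all 3 WT libraries, at 1.21, 1.0 and 0.90. Outside the lower end, chr18:80598136-80598562 was likewise called in 1 KO library, at 1.13, and in all 3 WT libraries, at 0.64, 1.11 and 1.07. The opposite case, chr18:80597463-80597974, was called in all 3 KO libraries, at 0.65, 0.75 and 0.87, and in WT replicates 2 and 6, at 1.0 and 0.72.

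Nfatc2 encodes NFATc2 (NFAT1), a main NFAT protein of resting T cells. It had 16 regions, with the strongest inside the span at chr2:168574565-168575621, where the scaled pileup was 2.5, 2.06 and 2.09 in KO, against 2.79, 2.96 and 2.41 in WT (-0.30 with SE 0.13, or 0.05 on the shared-region scale, overlapping on both). Of the 2 listed starts, the inner had the higher peak in every library. Its region, chr2:168589149-168591348, had 2.00, 1.62 and 2.09 in KO, against 2.25, 2.63 and 2.38 in WT (-0.35, with overlap on the shared-region scale). The region of the outer start, chr2:168601122-168601823, covered the greater part of the stretch printed above, but not its 3 NFAT cores. It had 0.55 and 0.65 in KO replicates 1 and 4, no call in KO replicate 2, and 0.64, 0.81 and 0.55 in WT.

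Below the lower end of Nfatc2, chr2:168472857-168473906 lay 2.5 kb away and had 1.75, 2.06 and 1.61 in KO, against 2.39, 2.56 and 2.45 in WT (-0.46 with SE 0.11, or -0.11 with overlap on the shared-region scale). Farther out, chr2:168469088-168469370 was the other region called in every WT and no KO library, at 0.89, 0.89 and 0.86 in WT, under the median peak of each list. Inside the span, chr2:168583078-168583756 had 0.75, 0.75 and 0.91 in KO, against 1.04, 1.11 and 1.0 in WT (-0.39, or -0.04 with overlap on the shared-region scale). The region chr2:168539591-168540341 had 1.25, 1.19 and 1.0 in KO, against 1.32, 1.44 and 1.34 in WT (-0.26, or 0.08 with overlap on the shared-region scale). The other 2 regions called in all libraries, chr2:168532291-168532978 and chr2:168556079-168557012, overlapped on both scales, with log2 differences of 0.01 each on the scaled pileup. A weak region at chr2:168524898-168525192 was called in 1 KO library, at 0.44, and in all 3 WT libraries, at 0.50, 0.74 and 0.59.

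Nfatc3 encodes NFATc3 (NFAT4), known for its role in developing T cells. Both of its listed starts fell in its strongest region, chr8:106058615-106060364, which had 4.90, 3.44 and 3.83 in KO, against 3.79, 4.41 and 4.45 in WT. KO replicate 1 was above every WT library and KO replicate 2 below, so the groups overlapped (-0.07 with SE 0.17), while on the shared-region scale every KO library was higher (0.28). This was the most variable of the 9 strongest regions in KO. It ranked first of them in KO replicate 1 and sixth in KO replicate 2.

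Outside the lower end of Nfatc3 lay 2 regions within 1 kb of an end of Dus2, which encodes a tRNA dihydrouridine synthase. Of these, chr8:106054083-106054842 had 2.20, 1.75 and 1.91 in KO, against 2.25, 2.56 and 2.55 in WT (-0.33, or 0.02 with overlap on the shared-region scale). The other, chr8:106052435-106053220, overlapped on both scales, with 1.70, 1.75 and 1.30 in KO, against 2.00, 1.70 and 2.03 in WT. Only 3 of the 11 regions of Nfatc3 were called everywhere, and 4 were called in 1 library. Beyond the upper end, near the splicing factor gene Esrp2, chr8:106136377-106137102 was called in all but KO replicate 2, at 0.95 and 1.17 in KO replicates 1 and 4 and 1.57, 1.48 and 1.31 in WT.

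**Figure D4:**
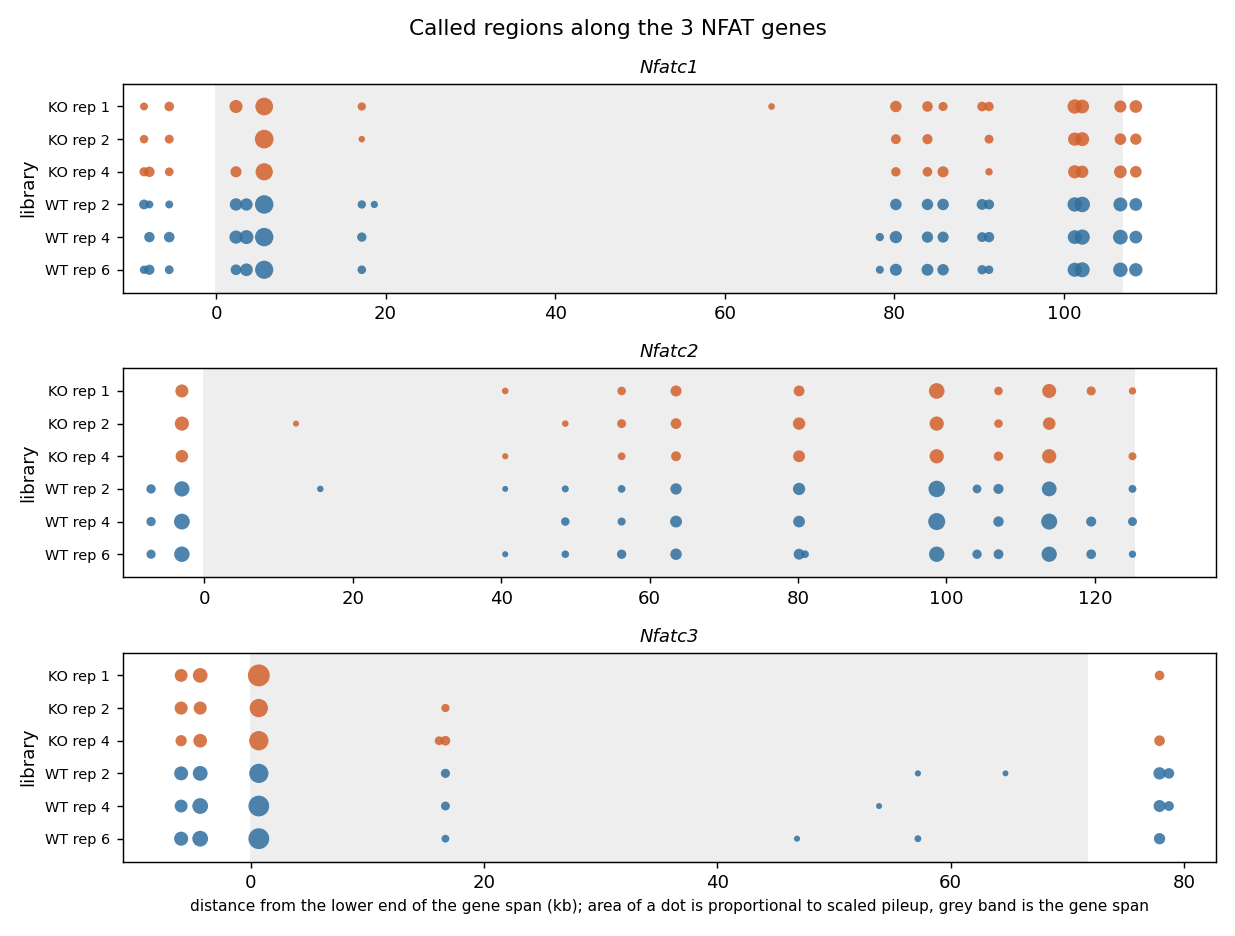
Called regions along Nfatc1, Nfatc2 and Nfatc3, as distance in kb from the lower end of the gene span (grey band), with 1 row per library, KO above WT, and the area of a dot proportional to scaled pileup. The large dots stand at the same places in all 6 rows, while the small dots differ between rows and include the 2 places, 1 in Nfatc1 and 1 below Nfatc2, with dots in the 3 WT rows only.

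Set in order by mean scaled pileup over the 6 libraries, the strongest regions were those of Egr1, Egr2, Nr4a1, Nfatc3, Nr4a3, Nfatc1, Egr3, Nfatc2 and Nr4a2. Egr1 ranged from 4.30 to 5.52, Egr2 from 4.22 to 4.71 and Nr4a1 from 4.09 to 4.79, so these ranges overlapped over the libraries. Within every library, though, Egr1 was above Egr2 and Nr4a1. Nfatc3, at 3.44 to 4.90, and Nr4a3, at 3.75 to 4.48, overlapped with each other too. Next by mean, Nfatc1, at 3.04 to 3.56, and Egr3, at 2.75 to 3.79, overlapped with each other and with Nfatc3. Egr3 also rose above the lowest value of Nr4a3, but was below Nr4a3 within every library. Nfatc2, at 2.06 to 2.96, and Nr4a2, at 2.00 to 2.79, overlapped with each other, and their ranges with that of Egr3. Within every library, however, Egr3 was above both, which ranked 8 or 9 throughout. The Nfatc1 region, at 3.56 or less, did not reach the lowest value of Nr4a3.

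Numbers of called peaks per gene did not overlap between KO and WT at 2 of the NFAT genes and overlapped at each of the NR4A and EGR genes with the window of 10 kb. Nfatc2 had 10, 9 and 9 peaks in KO, against 13, 12 and 14 in WT, a difference in means of -3.67 (exact permutation test, two-sided p = 0.1, the smallest that 20 assignments of 3 against 3 libraries allow). Nfatc3 had 5, 5 and 6 peaks in KO, against 8, 8 and 7 in WT, a difference of -2.33 (exact permutation p = 0.1). Separation with fewer peaks in KO was thus seen at 2 of the 9 genes and more at 0, against 15.5% and 0.388% of the 16246 protein-coding genes with a peak. That background was not matched for gene length or peak number, and Nfatc2 spans 125 kb and Nfatc3 71.7 kb. Nfatc1 had 17, 12 and 14 peaks in KO, against 17, 18 and 17 in WT, and KO replicate 1 reached the WT number (difference -3, exact permutation p = 0.3).

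When every list was shortened to its 37266 most significant peaks, the difference was 1.0 peak at Nfatc2, 0.33 at Nfatc1 and -0.33 at Nfatc3, and 0 of the 9 genes had fewer peaks in every KO library. Within the gene spans alone the number was also 0, with differences of -2.33 at Nfatc2 and -1.33 at Nfatc3 (exact permutation p = 0.2 each). With 25 kb on each side it was 3, among them Egr3 with a difference of -2.33 (exact permutation p = 0.1). Regions called in 1 library were 3 of 16 at Nfatc2, 4 of 11 at Nfatc3 and 2 of 19 at Nfatc1. They were 1 of 6 at Nr4a3, 1 of 3 at Egr2, 1 of 3 at Egr3 and 0 at Nr4a1, Nr4a2 and Egr1. In the background of regions at protein-coding genes the share was 16.8%.

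Nr4a1 had 7, 9 and 9 peaks in KO, against 9, 6 and 9 in WT. Egr1 had 6, 6 and 5 peaks in KO, against 4, 5 and 5 in WT (exact permutation p = 0.3), several of them within 1 merged region. The other 4 genes differed by less than 1 peak on average. Summed over families, the NR4A genes had 14, 16 and 17 peaks in KO, against 17, 14 and 16 in WT, and the EGR genes 12, 11 and 11 in KO, against 10, 11 and 11 in WT. The NFAT genes had 32, 26 and 29 peaks in KO, against 38, 38 and 38 in WT. Over all 9 genes the sum was 56.0 ± 2.65 in KO and 64.3 ± 1.15 in WT (SD, n = 3 libraries each). The whole lists were shorter in KO too, with 42408, 37266 and 42738 peaks, against 53251, 55939 and 52836 in WT. The sums are not scaled to list length.

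**Figure D5:**
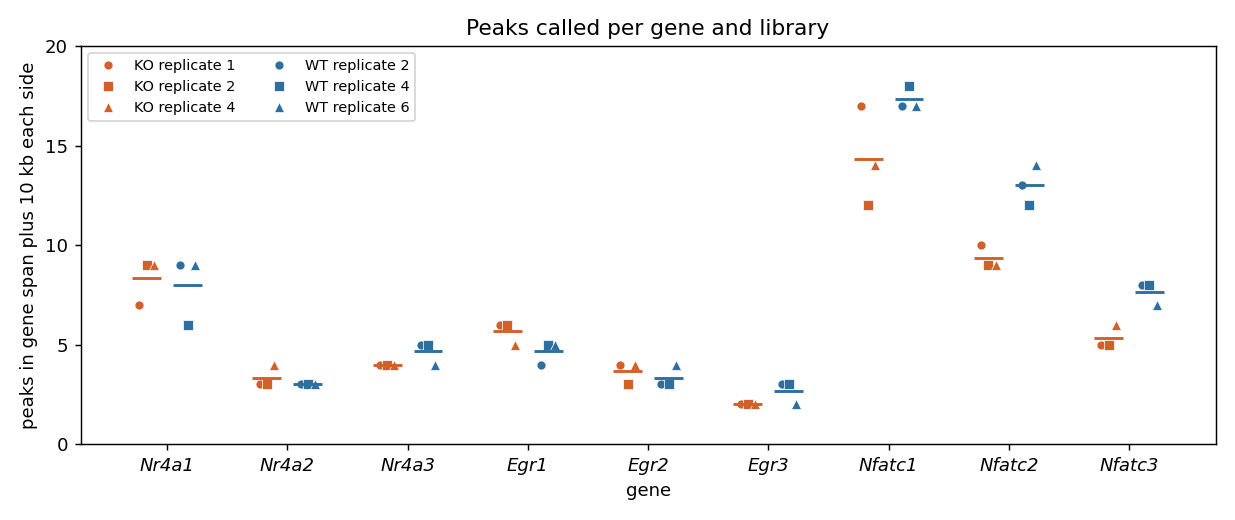
Peaks called per gene, within the span and 10 kb on each side, in each library (points, KO left of WT) with the group mean (bar). KO and WT are apart at Nfatc2 (9 to 10 in KO, 12 to 14 in WT) and Nfatc3 (5 to 6 in KO, 7 to 8 in WT) and overlap at the other 7 genes.

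Of 26 other genes that carry or limit the calcium signal to NFAT, or relate to the EGR and NFAT factors, 25 had a peak, with none at the scaffold gene Homer2. Fewer peaks in every KO library were seen at 4 of the 25 (16%) and more at 0, next to the backgrounds of 15.5% and 0.388%. These backgrounds were not matched for gene length or peak number. Itpr1, a calcium release channel of the endoplasmic reticulum, had 23, 19 and 22 peaks in KO, against 33, 28 and 29 in WT. Its relative Itpr2 had 15, 15 and 15 in KO, against 22, 24 and 24 in WT. Dyrk1a, a kinase that phosphorylates NFAT and promotes its export from the nucleus, had 10, 11 and 10 in KO, against 15, 14 and 17 in WT. Homer3, a scaffold protein, had 2 in each KO library, against 3 in each WT library. For each of these 4 genes the exact permutation p was 0.1. The calcineurin subunit genes Ppp3ca, with 7, 6 and 8 peaks in KO, against 10, 12 and 8 in WT, and Ppp3cb, with 2 in each library of both genotypes, overlapped, as did the calcium sensor Stim1, with 11 in each KO library, against 11, 10 and 11 in WT.

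Of the 73 regions, 52 overlapped a gene span and 21 lay outside, within the 10 kb on either side, and with 25 kb on either side there were 98. Just inside the window of 10 kb lay the Nr4a1 region that covers an end of Atg101, 8.36 kb away, at 2.96 to 3.89 over the libraries, and the Nfatc1 region chr18:80597463-80597974, 8.23 kb away, at 0.65 to 1.0. Just outside lay chr10:67523289-67524355, 10.1 kb from Egr2, called in 1 KO and 2 WT libraries at 0.35 to 0.45, and chr8:106140763-106141252, 10.2 kb from Nfatc3, called in all 6 libraries at 1.35 to 2.00. Of the 73 regions, 7 lay within 1 kb of an end of a neighbouring protein-coding gene.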

How the data were processed

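The data were the peak lists of 6 ATAC-seq libraries, grouped by the genotype in the labels. The submitters' processing notes name the build mm10, Bowtie2 2.3.1 and Picard 1.88. Per the file headers, MACS 2.1.1.20160309 called the peaks of each library separately at a q-value of 0.05, with tags shifted by -100 bp, extended to 200 bp and kept at 1 per position. The deposited pileup is a signal (coverage at the summit), not scaled to depth. The deposited fold enrichment is a ratio over the local background, and significance was deposited as a −log10 p-value and a −log10 q-value.

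Peaks overlapping by at least 1 bp were merged, and a library's highest peak in a region gave its value. Pileups were divided by the median pileup of each list. Counts per gene were tested with a two-sided exact permutation over 20 assignments, and pileups were described only, with the share of all regions whose groups do not overlap beside them. A promoter was the 250 bases before a RefSeq start. All 9 genes are named, with the region at the start, the strongest region, those whose groups do not overlap, and those called throughout one genotype and in at most 1 library of the other. The members and lists were chosen with earlier results of these data known, and the comparison with strong regions (mean scaled pileup of at least 2) was added after the data were seen. Alternatives were a −log10 q-value of at least 5, equal-length lists, the span alone or with 25 kb, windows of 200 bp around peak centres, other scalings, fold enrichment, the mean of a library's peaks, leaving out single libraries and pairing by replicate number. Strand is used only for genes with a listed start, and exons are not used, for want of an annotation that gives them. The rule for groups that do not overlap was tested on simulated heights with planted log2 changes of 1. Counting per gene was checked against direct counting on part of the data, and the other steps were not simulated. The steps used Python 3.11.15, NumPy 2.4.6, pandas 2.3.3 and Matplotlib 3.10.9.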

Additional observations from a re-analysis of the deposited data

How the results depend on the processing

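The direction of the peak height differences depended on the scale. Against the median log2 difference of -0.19 over the 39 shared regions, the median was 0.15 in equal-length lists, 0.15 on the shared-region scale, 0.17 relative to kept tags and 0.10 for fold enrichment, and -0.28 with peaks of a −log10 q-value of at least 5. The strongest regions of Nr4a1, Nr4a3, Egr2, Egr1, Nfatc1, Nfatc2 and Nfatc3, in this order, turned positive in equal-length lists (0.24, 0.20, 0.23, 0.21, 0.27, 0.06 and 0.28), on the shared-region scale (0.23, 0.20, 0.22, 0.21, 0.27, 0.05 and 0.28), relative to kept tags (0.25, 0.22, 0.24, 0.23, 0.29, 0.07 and 0.30) and for fold enrichment (0.10, 0.10, 0.13, 0.26, 0.14, 0.01 and 0.11). Those of Nr4a2 and Egr3 turned positive relative to kept tags (0.00595 and 0.0126) and for fold enrichment (0.0286 and 0.00419), and stayed just below 0 in the other 2 settings. Against 22 regions lower and 0 higher in every KO library, 1 was lower and 11 were higher in equal-length lists, 0 and 13 on the shared-region scale, 0 and 1 relative to kept tags, 0 and 4 for fold enrichment, and 14 and 0 with the gene span alone. Apart from fewer regions being counted with the span alone, the cause was not tested. Of all shared regions, 48.2% were lower and 0.197% higher in every KO library on the scaled pileup. These shares were 6.9% and 13.7% on the shared-region scale and 3.34% and 4.7% relative to kept tags. For the other settings of this section no such share was taken, for regions or for genes.

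In equal-length lists 0 regions were called in WT alone and 0 genes had fewer peaks in every KO library, with differences in mean peak number of 0.333 at Nfatc1 and 1 at Nfatc2. With the gene span alone, which leaves fewer regions, 25 regions were called in all libraries, 1 in WT alone, and 0 genes had fewer peaks in every KO library, and Egr2 moved to -0.333. With 25 kb on each side the difference was -1.67 at Nr4a1, -0.333 at Egr1, -0.333 at Egr2 and -2.33 at Egr3, and 3 genes had fewer peaks in every KO library. Leaving out each library in turn gave 3 to 4 regions in WT alone, 2 to 4 genes with fewer and 0 to 1 genes with more peaks in every KO library, 39 to 44 regions called in all libraries, 23 to 27 lower and 0 to 1 higher regions, a peak difference of -0.667 to 1 at Nr4a1 and a log2 difference of -0.21 to 0.04 at the strongest region of Nfatc3.

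Replicate numbers 2 and 4 occur in both genotypes, but deviations of same-numbered libraries correlated at -0.02 and -0.05, so the numbers were not taken as pairs. The replicate block compared KO replicates 2 and 4 each with the WT library of the same number. In it 4 regions were called in WT alone and 5 genes had fewer peaks in KO in both pairs. Of 40 regions called in all of these libraries, 31 were lower and 1 was higher in KO in both pairs on the scaled pileup. The median log2 difference was -0.24. Depth limits every count of absent peaks and every comparison of peak lengths or heights, since each KO library had fewer tags than each WT library.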
